A study of Mus musculus with 14 samples.

Results

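Chemokines of the CC family that draw eosinophils and monocytes into tissue, together with their receptors and a pair of eosinophil genes, were followed in mouse neck skin during experimental dermatitis. The genes were taken from the count table by symbol and number 10 of 35327. They are the eotaxins Ccl11 and Ccl24, the monocyte chemoattractants Ccl2, Ccl7, Ccl8 and Ccl12, the receptors Ccr2 and Ccr3, and Siglecf and Il5ra. All 10 passed the filter on low counts, which kept 20939 genes.

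The 14 libraries, each made from polyadenylated RNA, fall into 5 groups of C57BL/6J mice labelled female. The MAR1 group (3 libraries, age 6 weeks) received MAR1, an antibody to the alpha chain of the IgE receptor that is used to deplete basophils. Its control, the isotype group (3 libraries, age 6 weeks), received an isotype antibody. Both antibodies were given into the peritoneum at 20 µg every other day, with 3 injections before the skin treatment and more during it. The cKO group (3 libraries, age 6 to 7 weeks) carried Pdgfra-Cre and Il4ra fl/fl. Cre there is driven by the Pdgfra promoter, which is active in fibroblasts. Whether Il4ra was intact in other cells of the skin was not tested. Its control, the fl/fl group (3 libraries, age 6 to 7 weeks), carried Il4ra fl/fl without Cre, and neither of these groups was injected. Mice of all 4 groups received MC903 (calcipotriol) on the neck, a vitamin D analogue used to provoke type 2 dermatitis, for 6 days, 1 nmol in 100 µL daily. The untreated group (2 libraries, age 6 weeks) was wild-type normal skin. Whether vehicle was applied to it, and whether its libraries came from different mice, is not stated in the labels. The names of these 2 libraries share a number and differ by a suffix.

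CC chemokines are small secreted proteins that bind heparan sulfate in tissue and G protein-coupled receptors on leukocytes. The eotaxins CCL11 and CCL24 act through CCR3, the main chemokine receptor of eosinophils and basophils. IL-4 and IL-13, signalling through IL4RA and STAT6, induce CCL11 in dermal fibroblasts and CCL24 in macrophages. CCL2, CCL7 and CCL12 bring CCR2-bearing monocytes out of bone marrow and into inflamed tissue, and are induced by TNF, IL-1 and NF-kB signalling. Mouse CCL8 is described as a ligand of CCR8, a receptor of T helper 2 cells.

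The genes lie in a few clusters. On chromosome 11 the order is Ccl2, Ccl7, Ccl11, Ccl12 and Ccl8, each being the annotated neighbour of the next. Ccr3 and Ccr2 are neighbours on chromosome 9, Ccl24 is on chromosome 5 beside Ccl26, Siglecf is on chromosome 7 and Il5ra on chromosome 6. Promoter windows of RefSeq (assembly GRCm38.p6, an older build than that of the counts) were matched for 6 of the 10 genes, Ccl8, Ccl12, Ccr2, Ccr3, Siglecf and Il5ra. The windows ran 250 bases before and 50 after the annotated start. The 150 bases before the start of the adjacent genes Ccl12 and Ccl8 are shown because these neighbours share a core promoter element yet differ widely in level. Both are on the plus strand, Ccl12 at chr11:82101695-82101844 and Ccl8 at chr11:82115035-82115184. Capitals mark the TATA box, searched as TATAAA.
Ccl12: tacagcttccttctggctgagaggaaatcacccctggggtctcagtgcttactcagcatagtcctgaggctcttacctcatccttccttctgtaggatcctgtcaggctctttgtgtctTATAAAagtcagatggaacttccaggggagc
Ccl8: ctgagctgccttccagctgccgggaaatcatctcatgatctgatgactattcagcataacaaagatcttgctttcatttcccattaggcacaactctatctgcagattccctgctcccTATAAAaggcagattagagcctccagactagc

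The element begins 31 bases before the start in Ccl12 and 32 bases before it in Ccl8. It was found on either strand in these 2 of the 6 windows, against 13.62% of the 32851 mouse windows of the same length. The AP-1 motif TGANTCA was in 2 of the 6 windows (Ccr3 and Il5ra) and in 7.808% of all. The NF-kB motif (GGG and TTCC with 3 bases between them) was in 1, Ccr3, and in 5.555% of all. The STAT6 motif (TTC and GAA with 4 bases between them) was in 1, Il5ra, and in 6.953% of all. The related STAT motif with a spacer shorter by a base (TTCNNNGAA) was in 0 of 6 windows and in 8.298% of all. Both strands were searched, and a match describes letters only.

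Library depth and content differed between the groups and touch what follows. Totals were 5728921 to 10582016 counts in MAR1, 34312206 to 35580114 in isotype, 16464897 to 30811457 in cKO, 45120038 to 47995950 in fl/fl and 37499130 to 55291463 in untreated libraries. Olfactory and vomeronasal receptor genes, whose transcripts belong to sensory neurons, took 3.88% to 9.38% of counts in MAR1 against 0.269% to 0.439% in isotype libraries, and 0.467% to 2.58% in cKO against 0.0479% to 0.0769% in fl/fl libraries. Il4ra, the gene deleted in cKO mice, had 70.7, 67.9 and 14.5 CPM (counts scaled to library size with TMM) in cKO libraries, against 215, 145 and 176 CPM in fl/fl libraries (log2 fold change −1.81 ± 0.57, SE, edgeR adjusted p = 0.043). It was also lower in MAR1 libraries, at 45.8, 23.3 and 9.02 CPM against 196, 179 and 193 CPM in isotype libraries (log2 fold change −2.86, edgeR adjusted p = 0.0020). These are counts over the whole gene, and the deleted exons were not seen separately. Of 5 basophil genes, 2 were called higher and 2 lower in MAR1. Their sum was 233 to 365 CPM in MAR1 against 59.6 to 70.5 CPM in isotype libraries. Most of the MAR1 sum was Cd200r3 (mean 274 against 18.5 CPM), named after its values were seen. Fcer1a, which encodes the chain bound by MAR1, had 5.41, 1.71 and 0.150 CPM in MAR1 libraries, against 31.8, 33.3 and 23.6 CPM in isotype libraries. The basophil protease gene Mcpt8 had 18.0, 31.2 and 27.4 CPM in MAR1 libraries, against 6.71, 4.41 and 3.97 CPM in isotype libraries, so these basophil transcripts moved in opposite directions (edgeR adjusted p = 0.026 and 0.024). Other content moved with the groups too. Mitochondrial genes took 0.129% to 0.344% of counts in MAR1 against 2.12% to 2.33% in isotype libraries. Keratinocyte genes summed to 3424 to 6732 CPM in MAR1 against 19071 to 36445 CPM in isotype libraries. Sums in MAR1 libraries were above those in isotype libraries for neutrophil genes (506 to 620 against 78.0 to 160 CPM), endothelial genes (974 to 1365 against 288 to 321 CPM), T cell genes (129 to 239 against 15.9 to 26.6 CPM) and B cell genes (76.7 to 196 against 6.74 to 9.53 CPM). Skeletal muscle genes summed to 26.4 to 2680 CPM in cKO against 9837 to 56308 CPM in fl/fl libraries, and red blood cell genes to 46.5 to 219 CPM in cKO against 2390 to 16161 CPM in fl/fl libraries. The part of these transcripts in the differences below was not tested. The fl/fl libraries also stood apart from each other. Libraries 1 and 2 held 733 and 10949 CPM of the salivary gene Bpifa2, against 0.118 CPM in library 3, and B cell genes summed to 1.86 to 1262 CPM over the 3 libraries. Library 1 of cKO, labelled female, held 69.9 CPM of the Y-linked gene Ddx3y, against at most 0.781 CPM in any other library. Its removal is reported where the cKO comparison is. Of the other Y-linked genes examined, Eif2s3y was also highest in a cKO library (53.5 CPM). Uty and Kdm5d instead had their highest means in MAR1, also labelled female. Uty lay at 353 to 549 CPM there and at 16.3 to 29.7 CPM in isotype libraries. Kdm5d lay at 18.1 to 70.3 CPM and at 4.12 to 6.62 CPM. The source of these counts was not tested.

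Per length, Ccl8 had the highest mean of the 10 genes in each of the 5 groups, from 1041 CPM per kb of exon in MAR1 skin to 233 CPM per kb in isotype skin. The order of the others depended on the group. In MAR1 skin, Ccl7 (149 CPM per kb), Ccl2 and then Ccl24 (26.7 CPM per kb) followed, with Ccl12 and Ccl11 (15.1 CPM per kb) below them. In isotype skin, Ccl11 (23.4 CPM per kb) lay above Ccl24 (2.26 CPM per kb). Il5ra, at 7.04 CPM per kb in MAR1 skin, was near Ccr2 (8.74 CPM per kb) there, and in isotype skin it had 0.425 CPM per kb against 2.13 CPM per kb for Ccr2. Ccr3 and Siglecf stayed under 1 CPM per kb in every group mean. Transcripts that define mature eosinophils were close to absent. The eosinophil peroxidase gene Epx had 0 counts in all MAR1, isotype, cKO and untreated libraries and at most 0.379 CPM in an fl/fl library. The major basic protein gene Prg2 did not exceed 2.27 CPM in any library. The summed level of 7 eosinophil genes (Epx, Prg2, Prg3, Ear1, Ear2, Ear6 and Alox15) was 14.2 to 21.2 CPM in MAR1, 2.59 to 8.16 CPM in isotype, 7.87 to 17.3 CPM in cKO, 3.75 to 25.5 CPM in fl/fl and 64.3 to 84.0 CPM in untreated libraries. Most of the untreated sum was Ear2, a ribonuclease gene named here after its values were seen, at 58.7 and 81.6 CPM. In bulk skin, fewer cells of a type and less RNA per cell cannot be told apart.

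**Figure D1:**
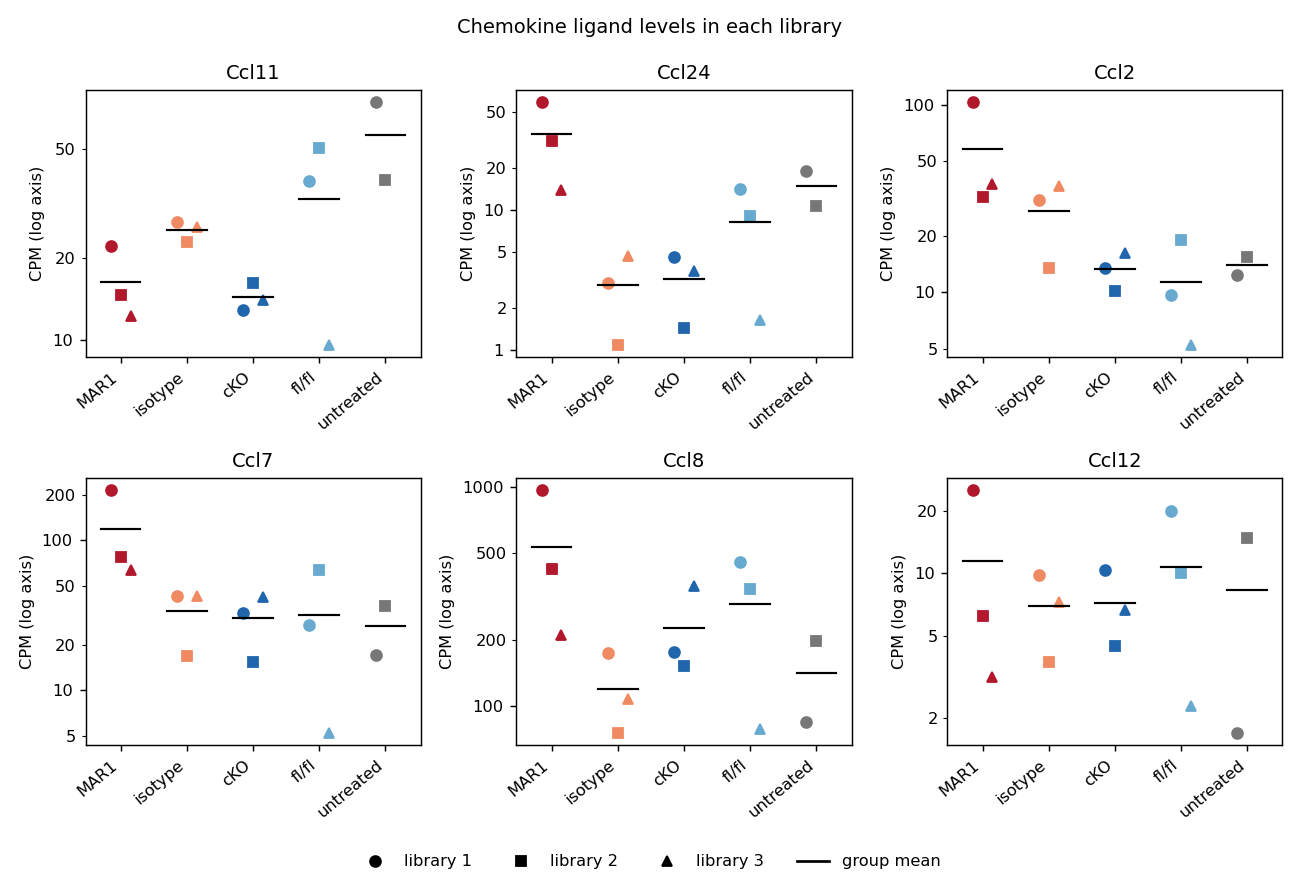
Levels of the 6 chemokine ligand genes in each of the 14 libraries, in TMM-scaled CPM on log axes, by group. Symbols mark library numbers and bars the group mean. Ccl24 lies at 13.8 to 59.0 CPM in MAR1 and at 1.10 to 4.68 CPM in isotype libraries, while Ccl11 lies at 12.3 to 22.1 CPM in MAR1 and 22.9 to 27.0 CPM in isotype libraries.

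The comparison of MAR1 with isotype skin asks how chemokine transcripts differ in dermatitis when mice receive the basophil-depleting antibody. Ccl24, Ccl8, Ccr2 and Il5ra were higher in MAR1 skin, and none of the 10 genes was called lower. The 4 genes called higher compare with 22.6% of all genes tested, and the 0 called lower with 26.5%. In either direction 49% of all genes were called, so a call here is a common event. The genes' median log2 fold change was 1.47, against 0.00 for all genes. All tests in this and the following comparisons are edgeR quasi-likelihood tests with Benjamini-Hochberg adjustment over 20939 genes, and SE is given for log2 fold changes.

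The 2 eotaxins differed in direction. Ccl24, an eotaxin made by macrophages, had 59.0, 31.1 and 13.8 CPM in MAR1 libraries, against 3.03, 1.10 and 4.68 CPM in isotype libraries. Every MAR1 library was above every isotype library, and library 1 was the highest. The difference was 11.8-fold (log2 fold change 3.56 ± 0.81, adjusted p = 0.0034). Ccl11, the fibroblast eotaxin, had 22.1, 14.7 and 12.3 CPM in MAR1 libraries, against 27.0, 22.9 and 25.9 CPM in isotype libraries. The groups did not overlap, with MAR1 below isotype, but the difference did not pass the test (−0.62 ± 0.47, adjusted p = 0.27). With another scaling of the libraries (RLE), which moves the median of all genes by 0.57 on the log2 scale in this comparison, it was −0.07 (adjusted p = 0.91), and with the receptor gene share in the model 0.35.

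Counts of both eotaxins within a library need no scaling between libraries. The number of Ccl24 counts per Ccl11 count was 2.67, 2.12 and 1.12 in MAR1 libraries, against 0.112, 0.0479 and 0.180 in isotype libraries. The groups lay far apart. The ratio is not corrected for transcript length, so only its differences between libraries are read. The MAR1 ratio was 18.7 times that of isotype (exact two-sided permutation test, p = 0.1, the smallest that 3 against 3 libraries allow, adjusted p = 0.23 over 44 ratio comparisons, all chosen after levels were known). The ratio lay at 0.356, 0.0885 and 0.261 in cKO, at 0.368, 0.179 and 0.172 in fl/fl and at 0.255 and 0.276 in untreated libraries, all below the lowest MAR1 library.

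Set against cell type transcripts, the eotaxins also stood differently. Macrophage genes (12 genes summed) had 574 to 2158 CPM in MAR1 libraries, against 1948 to 2397 CPM in isotype libraries, and 0 of them were called higher and 8 lower. The make-up of this sum differed between the groups. By sign, 2 genes were higher, C1qa (mean 488 against 295 CPM) and Mrc1 (372 against 286 CPM). The other 10 were lower, among them C1qb (16.3 against 236 CPM), all named after their values were seen. Counts per macrophage count thus do not measure a level per macrophage. Ccl24 counts per 1000 macrophage counts were 27.3, 29.1 and 24.1 in MAR1 libraries, against 1.26, 0.562 and 2.02 in isotype libraries. The MAR1 values lay close together although the Ccl24 levels of those libraries did not. Fibroblast genes (12 genes summed) had 1602 to 2099 CPM in MAR1 libraries, against 3861 to 4592 CPM in isotype libraries. They did not move together, since 3 (Pi16, Cd34 and Sfrp2, named after their values were seen) were called higher and 6 lower. Ccl11 counts per 1000 fibroblast counts were 10.5, 9.17 and 7.35 in MAR1 libraries, against 5.89, 5.83 and 6.71 in isotype libraries. The MAR1 values of Ccl11 thus lay above those of isotype per count of this summed list and below them in CPM (exact two-sided p = 0.1 for each of these ratios, adjusted p = 0.23).

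**Figure D2:**
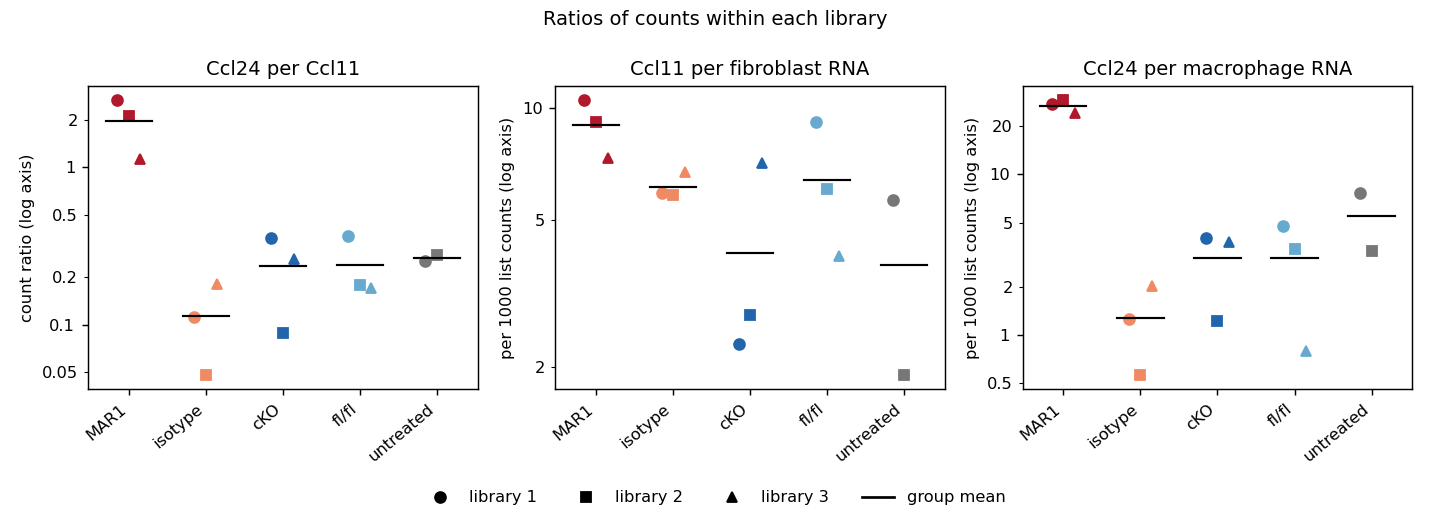
Ratios of counts within each library, on log axes: Ccl24 per Ccl11 (left), Ccl11 per 1000 counts of the fibroblast list (middle) and Ccl24 per 1000 counts of the macrophage list (right). Bars are group means. The 3 MAR1 libraries lie above all others for Ccl24 per Ccl11 (1.12 to 2.67) and for Ccl24 per macrophage counts (24.1 to 29.1).

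Among the monocyte chemoattractants, Ccl8 had 963, 421 and 211 CPM in MAR1 libraries, against 174, 75.4 and 108 CPM in isotype libraries. The groups did not overlap, though MAR1 library 3 was near isotype library 1. The difference was 4.47-fold (2.16 ± 0.68, adjusted p = 0.019). The call is lost without MAR1 library 1 (1.41, adjusted p = 0.091), without isotype library 2 (1.92, adjusted p = 0.075) and without isotype library 3 (2.09, adjusted p = 0.062).

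Ccl7, which binds CCR2, had 216, 77.7 and 63.9 CPM in MAR1 libraries, against 42.5, 17.0 and 42.3 CPM in isotype libraries. Again no MAR1 library was as low as an isotype library, but the test was not passed (1.81 ± 0.76, adjusted p = 0.063). It was passed with RLE scaling (2.32, adjusted p = 0.025). Ccl2, the prototype CCR2 ligand, had 104, 32.4 and 38.0 CPM in MAR1 libraries, against 31.1, 13.5 and 36.8 CPM in isotype libraries. MAR1 library 1 stood far above the rest and the other MAR1 libraries lay within or near the isotype range (1.10 ± 0.53, adjusted p = 0.097). With RLE scaling Ccl2 was also called (1.61, adjusted p = 0.023).

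Ccl12, a CCR2 ligand found in the mouse, had 25.1, 6.24 and 3.16 CPM in MAR1 libraries, against 9.82, 3.75 and 7.25 CPM in isotype libraries. The groups overlapped and the sign rested on MAR1 library 1, without which the log2 fold change was −0.55 in place of 0.74 ± 0.90 (adjusted p = 0.50 with all libraries). In all 4 monocyte chemoattractants MAR1 library 1 was the highest of the 14 libraries. This library held the lowest receptor gene share of its group, 3.88%, and the highest macrophage sum, 2158 CPM. Per 1000 macrophage counts, Ccl8 had 446, 394 and 367 counts in MAR1 libraries, against 72.6, 38.7 and 46.6 in isotype libraries. By this ratio MAR1 library 1 no longer stood apart from its group and the groups differed 7.90-fold (exact two-sided permutation test, p = 0.1, adjusted p = 0.23). The make-up of the macrophage sum differed between these groups, as given above. With the log2 share of receptor genes in the model, an alternative chosen after seeing the data, log2 fold changes were 0.97 for Ccl8, 0.97 for Ccl2, 0.78 for Ccl7 and −1.26 for Ccl12, with adjusted p of 0.86 to 0.94.

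Ccr2, the receptor of CCL2, CCL7 and CCL12 on monocytes, had 64.0, 57.7 and 55.6 CPM in MAR1 libraries, against 17.3, 11.4 and 14.6 CPM in isotype libraries. Both groups were tight and far apart. The difference was 4.10-fold (2.03 ± 0.63, adjusted p = 0.017). The call is lost without isotype library 2 (1.89, adjusted p = 0.067) and without isotype library 3 (2.04, adjusted p = 0.053). Monocyte genes (10 genes summed) had 171 to 321 CPM in MAR1 libraries, against 345 to 436 CPM in isotype libraries. Of these 10, 2 (Plac8 and Cx3cr1, named after their values were seen) were called higher and 5 lower. Ccr2 counts per 1000 monocyte counts were 199, 327 and 326 in MAR1 libraries, against 40.9, 33.1 and 33.4 in isotype libraries (exact two-sided p = 0.1, adjusted p = 0.23).

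Il5ra, the alpha chain of the IL-5 receptor on eosinophils and B-1 cells, had 14.6, 28.7 and 32.2 CPM in MAR1 libraries, against 1.66, 1.07 and 1.84 CPM in isotype libraries. The difference was the largest of the 10 genes, 16.5-fold (4.04 ± 0.86, adjusted p = 0.0022). Its level moved with the share of receptor genes. Il5ra counts per 10000 counts of olfactory and vomeronasal receptor genes were 4.14, 4.35 and 3.98 in MAR1 libraries, against 3.79, 3.87 and 4.59 in isotype libraries, so this ratio overlapped between the groups (exact two-sided p = 0.8, adjusted p = 0.86). Overlap of this ratio was not particular to Il5ra. Ccl24 counts per 10000 receptor gene counts were 16.7, 4.72 and 1.71 in MAR1 libraries, against 6.92, 3.97 and 11.6 in isotype libraries (exact two-sided p = 0.8, adjusted p = 0.86), and they spread more widely within each group. With the log2 share of receptor genes in the model, the log2 fold change was 0.09 (adjusted p = 1.00). In that fit no gene of the 20939 was called in this comparison, and Ccl24 kept a log2 fold change of 3.38 (adjusted p = 0.68) and Ccr2 had 0.64.

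Ccr3, the eotaxin receptor, had 3.78, 2.21 and 0.301 CPM in MAR1 libraries, against 1.91, 0.490 and 0.497 CPM in isotype libraries. Siglecf, an inhibitory lectin of eosinophils, had 0.516, 0.705 and 0.301 CPM in MAR1 libraries, against 0.485, 0.202 and 0.409 CPM in isotype libraries. Both genes overlapped between the groups and neither passed the test (1.13 ± 1.29, adjusted p = 0.47 for Ccr3 and 0.48 ± 1.39, adjusted p = 0.78 for Siglecf). The MAR1 values rest on 2 to 44 counts for Ccr3 and 2 to 7 counts for Siglecf, so small differences were not detectable at this depth.

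By overlap alone, 5 of the 10 genes (Ccl24, Ccl7, Ccl8, Ccr2 and Il5ra) lay wholly above isotype in MAR1 libraries, and 1, Ccl11, wholly below. Over all genes tested, 32.1% lay wholly above and 36.4% wholly below.

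**Figure D3:**
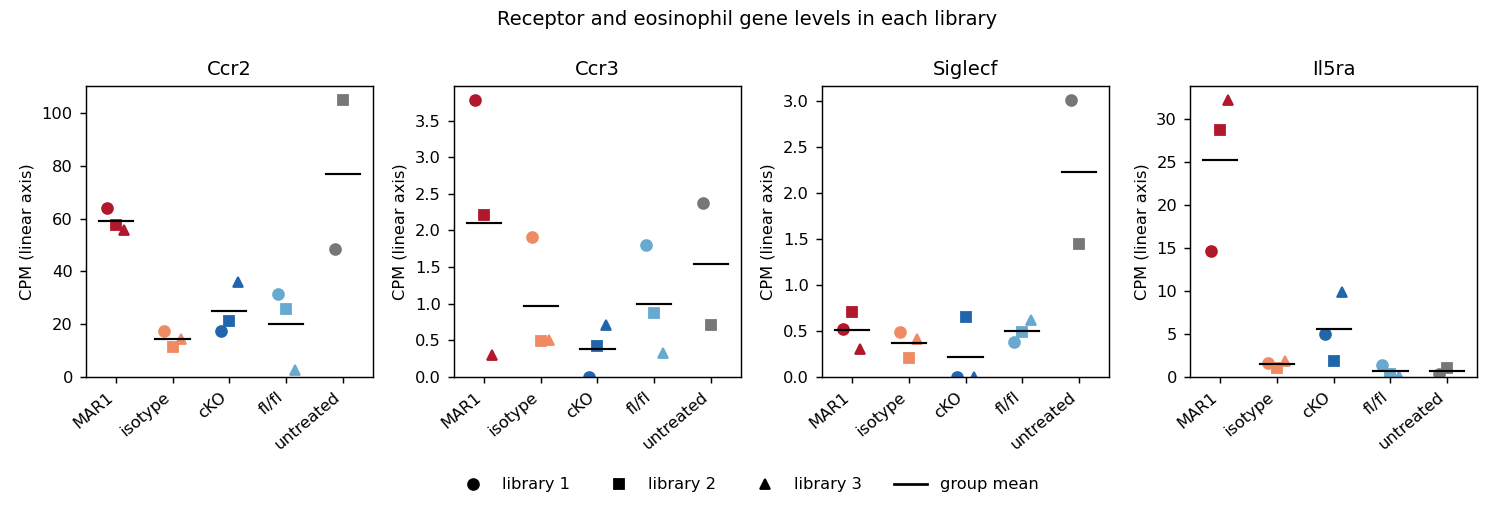
Levels of Ccr2, Ccr3, Siglecf and Il5ra in each of the 14 libraries, in TMM-scaled CPM on linear axes, by group, with group means as bars. Ccr2 lies at 55.6 to 64.0 CPM in MAR1 and 11.4 to 17.3 CPM in isotype libraries, and Siglecf is above 1 CPM in the untreated libraries alone.

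**Figure D4:**
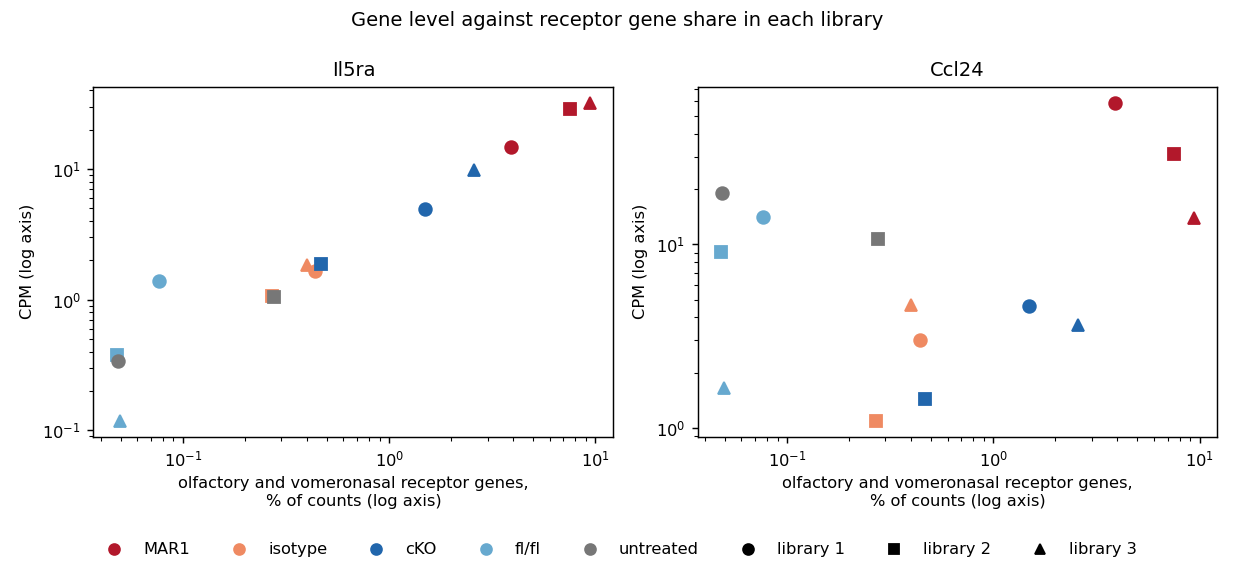
Il5ra (left) and Ccl24 (right) in CPM against the percentage of counts in olfactory and vomeronasal receptor genes, both axes logarithmic, 1 point per library. Il5ra is high where the share is high, up to 32.2 CPM at 9.38%, while among MAR1 libraries Ccl24 is lowest, 13.8 CPM, at that share.

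Other parts of the chemokine system moved differently. Of 11 tested ligands and receptors related to the 10 genes, 1 was higher and 5 were lower in MAR1, with a median log2 fold change of −0.60. Ackr1, the chemokine-binding receptor of venular endothelium that also holds CCL2, CCL7 and CCL11, was lower (4.46 ± 0.632 CPM in MAR1 and 27.9 ± 2.65 CPM in isotype, SD, n = 3 each; log2 fold change −2.64, edgeR adjusted p = 0.00053). The scavenging receptor Ackr2 (−2.27, adjusted p = 0.016) and the chemerin-binding receptor Ccrl2 (−2.52, adjusted p = 0.0091) were lower as well. With RLE scaling the counts of this list were 2 higher and 2 lower, and Ackr2 was not called (adjusted p = 0.070).

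Of 14 genes of the type 2 pathway that induces eotaxins, 1 was higher and 7 were lower in MAR1 (median −1.23). Stat6, the transcription factor downstream of IL4RA, had 23.6 ± 5.76 CPM in MAR1 and 98.8 ± 11.6 CPM in isotype libraries (−2.06, adjusted p = 0.00028). Jak1 (−2.36, adjusted p = 0.00038) and Csf2rb, the beta chain gene of the IL-5 and GM-CSF receptors (−2.12, adjusted p = 0.00084), were also lower. So was the related gene Csf2rb2 (−2.87, adjusted p = 0.00082). CSF2RB pairs with IL5RA to form the IL-5 receptor, and their transcripts thus moved in opposite directions.

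Of 17 tested inducers of monocyte chemoattractants, 2 were higher and 9 were lower in MAR1 (median −1.40). The TNF receptor gene Tnfrsf1a had 5.42 ± 1.59 CPM in MAR1 and 204 ± 4.48 CPM in isotype libraries (−5.22, adjusted p = 0.0003). The IL-1 receptor gene Il1r1 (−2.69, adjusted p = 0.00036), the NF-kB subunit gene Rela (−1.63, adjusted p = 0.0013) and the macrophage growth factor gene Csf1 (−1.63, adjusted p = 0.0016) were lower too. With RLE scaling 5 were higher and 8 lower. Lower calls made up more of these lists than of all genes, where 26.5% were lower, but the lists were chosen with earlier results known and no test of the lists was made.

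The comparison of cKO with fl/fl skin asks which of these transcripts depend on Il4ra in Pdgfra-expressing cells. Il5ra was the only gene of the 10 called, and it was higher in cKO, as was the share of receptor genes. Both eotaxins had lower means in cKO without passing the test. The 1 gene called higher compares with 12.7% of all genes tested, and the 0 called lower with 5.97% (18.7% in either direction). The median log2 fold change of the 10 genes was −0.47, against 0.03 for all genes.

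Ccl11 had 12.9, 16.3 and 14.02 CPM in cKO libraries, against 38.3, 50.8 and 9.63 CPM in fl/fl libraries. The cKO libraries were close together, and fl/fl libraries 1 and 2 lay above all of them while fl/fl library 3 lay below. The log2 fold change was −1.19 ± 0.47 (adjusted p = 0.089). Without fl/fl library 3 it was −1.23 and passed (adjusted p = 0.021), and with fl/fl library 3 as the only control it was 0.87 (adjusted p = 0.27), so its direction depends on which fl/fl libraries are used. Fibroblast genes summed to 1968 to 5874 CPM in cKO libraries and 2413 to 8376 CPM in fl/fl libraries. Ccl11 counts per 1000 fibroblast counts were 2.30, 2.77 and 7.12 in cKO libraries, against 9.19, 6.06 and 3.99 in fl/fl libraries (exact two-sided p = 0.3, adjusted p = 0.49).

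Ccl24 had 4.61, 1.44 and 3.65 CPM in cKO libraries, against 14.1, 9.11 and 1.65 CPM in fl/fl libraries. It showed the same arrangement, with fl/fl libraries 1 and 2 high and library 3 within the cKO range (−1.36 ± 0.75, adjusted p = 0.21). The number of Ccl24 counts per Ccl11 count, given above, overlapped between the groups (exact two-sided p = 0.9).

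The monocyte chemoattractants overlapped between cKO and fl/fl in every case. Ccl8 had 176, 152 and 352 CPM in cKO libraries, against 452, 342 and 78.3 CPM in fl/fl libraries (−0.36 ± 0.65, adjusted p = 0.73). Ccl7 had 33.0, 15.5 and 42.2 CPM in cKO libraries, against 27.4, 63.0 and 5.20 CPM in fl/fl libraries (−0.08 ± 0.74, adjusted p = 0.96). The lowest value was that of fl/fl library 3 for both genes.

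Ccl2 had 13.6, 10.2 and 16.3 CPM in cKO libraries, against 9.69, 19.1 and 5.26 CPM in fl/fl libraries (0.23 ± 0.53, adjusted p = 0.79). Ccl12 had 10.3, 4.48 and 6.65 CPM in cKO libraries, against 20.0, 9.98 and 2.31 CPM in fl/fl libraries (−0.59 ± 0.90, adjusted p = 0.68). The spread among fl/fl libraries exceeded the difference between the groups for each of these 4 genes.

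Ccr2 had 17.3, 21.3 and 35.8 CPM in cKO libraries, against 31.3, 25.8 and 2.72 CPM in fl/fl libraries (0.31 ± 0.61, adjusted p = 0.75). Fl/fl library 3 was the lowest of all 14. With it as the only control, the log2 fold change of Ccr2 was 3.49. Against monocyte genes, which summed to 153 to 210 CPM in cKO libraries and 318 to 766 CPM in fl/fl libraries, the groups parted. Ccr2 counts per 1000 monocyte counts were 82.5, 105 and 234 in cKO libraries, against 40.9, 47.8 and 8.55 in fl/fl libraries, a 4.95-fold difference with no overlap (exact two-sided p = 0.1, adjusted p = 0.23).

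Il5ra had 4.96, 1.86 and 9.89 CPM in cKO libraries, against 1.39, 0.379 and 0.118 CPM in fl/fl libraries. The fl/fl values rest on 51, 17 and 4 counts, and that of library 3 is near the level of 3 counts (0.0887 CPM). Il5ra was the only one of the 10 genes with no overlap, all cKO libraries being higher. Of all genes, 17% lay wholly above fl/fl in cKO libraries and 12.4% wholly below. The difference was 8.77-fold (3.13 ± 0.84, adjusted p = 0.020). It is lost without cKO library 3 (2.43, adjusted p = 0.087) and without fl/fl library 2 (2.87, adjusted p = 0.071), and without cKO library 1, the library high in Ddx3y, it was 3.21 (adjusted p = 0.033). Il5ra counts per 10000 receptor gene counts were 3.66, 3.96 and 3.95 in cKO libraries, against 14.1, 7.39 and 1.79 in fl/fl libraries, with no separation. With the receptor gene share as a covariate the log2 fold change was −1.13 (adjusted p = 0.83).

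Ccr3 had 0, 0.425 and 0.707 CPM in cKO libraries, against 1.80, 0.870 and 0.325 CPM in fl/fl libraries. The count of 0 in cKO library 1 allows up to 0.106 CPM, the level of 3 counts. Siglecf had 0, 0.654 and 0 CPM in cKO libraries, against 0.382, 0.491 and 0.621 CPM in fl/fl libraries. The counts of 0 in cKO libraries 1 and 3 allow up to 0.106 and 0.177 CPM, and cover counting error only. Neither gene passed the test (−1.42 ± 1.32, adjusted p = 0.47 for Ccr3 and −1.14 ± 1.38, adjusted p = 0.59 for Siglecf). Without cKO library 2, the only cKO library with Siglecf counts, Siglecf was called lower (adjusted p = 0.027). Its fitted value there, −6.71, is set against libraries at 0 and is no measure of size.

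**Figure D5:**
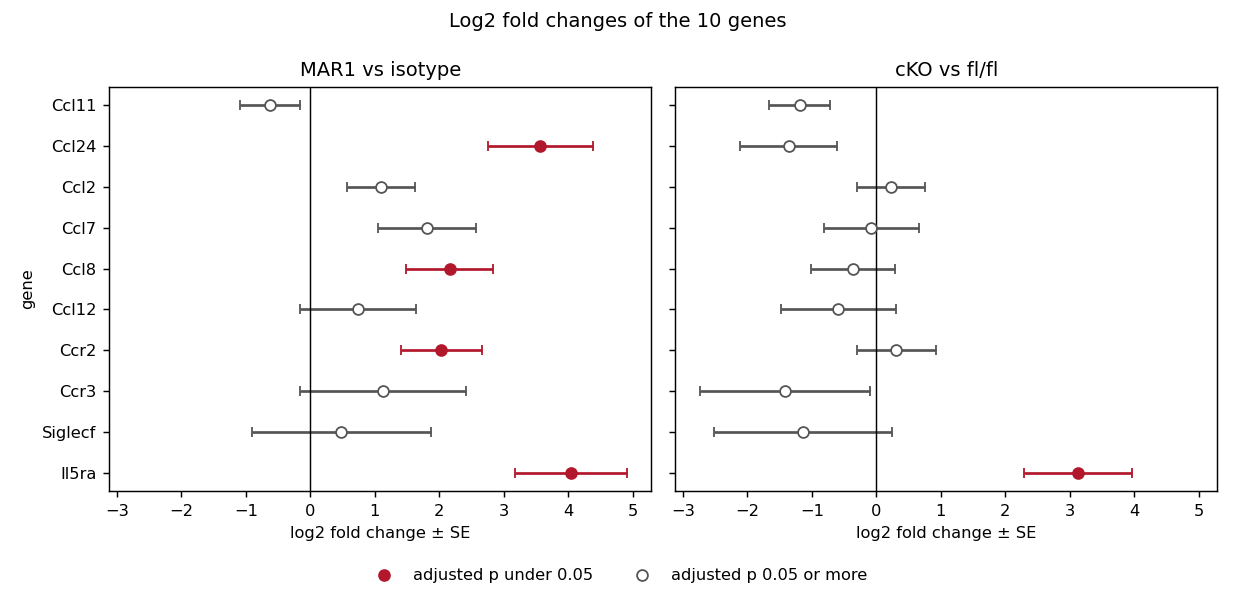
Log2 fold changes (points) with SE (bars) of the 10 genes in MAR1 against isotype (left) and cKO against fl/fl (right). Filled red points have an adjusted p under 0.05. Ccl24 is at 3.56 in the left panel and −1.36 in the right one, and Il5ra is above 3 in both.

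Of the chemokine and cytokine pathway genes around them, those called in cKO were lower. Of 11 tested related ligands and receptors, 0 were higher and 3 were lower in cKO (median −0.93). They were Ccl5, a T cell chemokine (0.190 ± 0.143 CPM in cKO and 40.9 ± 53.0 CPM in fl/fl, SD, n = 3 each; −7.69, edgeR adjusted p = 0.0059), Ccl6 (−1.71, adjusted p = 0.034) and Ccl9 (−1.33, adjusted p = 0.046). T cell genes summed to 34.3 to 75.0 CPM in cKO libraries and to 6.56 to 777 CPM in fl/fl libraries. The part of these cells in the Ccl5 difference was not tested.

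Of the 14 type 2 genes, 0 were higher and 3 were lower in cKO (median −0.55). Tslp, the epithelial cytokine induced by MC903, had 131 ± 68.3 CPM in cKO and 771 ± 461 CPM in fl/fl libraries (−2.56, adjusted p = 0.026). The common gamma chain gene Il2rg (−2.68, adjusted p = 0.040) and Il4ra itself were the others. Of the 17 inflammatory inducers, 0 were higher and 5 were lower (median −1.08), among them the IL-17 receptor gene Il17ra (−1.39, adjusted p = 0.014), Csf1 (−1.17, adjusted p = 0.024), the NF-kB inhibitor gene Nfkbia (−1.38, adjusted p = 0.024) and Rela (−1.08, adjusted p = 0.029). These lower calls rest on fl/fl libraries that stood apart from each other. With fl/fl library 3 as the only control, calls in these lists were not read, because 1 library shows no spread within its group.

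The effects of the antibody and of the deletion were set against each other by subtracting the log2 effect of MAR1 from that of cKO, which is an interaction. Ccl24 was the only gene of the 10 for which the difference was called (−4.92 ± 1.10, a 30.3-fold difference of effects, adjusted p = 0.027). Its log2 fold change was −1.36 in cKO against fl/fl, and 3.56 in MAR1 against isotype. The 1 gene called lower compares with 1.82% of all genes tested, and the 0 called higher with 6.14% (7.96% in either direction). Ccl8 had −2.52 ± 0.93 (adjusted p = 0.098), Ccr2 −1.72 ± 0.86 (adjusted p = 0.20) and Ccl7 −1.89 ± 1.05 (adjusted p = 0.25). All 10 estimates were negative, with a median of −1.67, against 0.41 for all genes, of which 8500 of 20939 were negative. With RLE scaling the median of all genes was −0.05 and all 10 stayed negative. With fl/fl library 3 as the only fl/fl library 6 of the 10 were positive, so this shared sign depends on fl/fl libraries 1 and 2.

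The Ccl24 call in the interaction is near its threshold. It is lost without MAR1 library 3 (−5.31, adjusted p = 0.062), without isotype library 1 (−4.95, adjusted p = 0.062), library 2 (−4.53, adjusted p = 0.075) or library 3 (−5.43, adjusted p = 0.064), without fl/fl library 2 (−4.85, adjusted p = 0.056) with fl/fl library 3 as the only fl/fl library (−2.30, adjusted p = 0.26), and with the replicate number as a block (−4.74, adjusted p = 0.0504). Of all genes tested, 2 were called in the interaction without MAR1 library 3, and 1 without isotype library 1, 2 or 3. Nearly all calls were thus lost in those fits. Without fl/fl library 3, Ccl8 (−2.59, adjusted p = 0.044) and Ccr2 (−1.84, adjusted p = 0.027) were called as well. That fit called 23.3% of all genes in the interaction, against 7.96% with all libraries. The Ccl24 estimate was negative in all of these fits. Receptor gene shares differed between the experiments as given above. With this share in the model the Ccl24 interaction was −4.96 (adjusted p = 0.016). That fit called 18.1% of all genes in the interaction, against 7.96% without the share in the model.

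The untreated libraries place the levels of dermatitis skin beside normal skin. They are shared by the isotype and the fl/fl comparisons, so the results of these are not independent. Of the 10 genes, 0 were called in isotype against untreated, where 3.08% of all genes were called (1.35% higher, 1.72% lower). In fl/fl against untreated 0 of 10 were called, where 1.72% of all genes were (0.769% higher, 0.95% lower). At an unadjusted p under 0.05, 3 genes were lower in isotype (Ccr2, Ccl24 and Ccl11; 8.38% of all genes) and 1, Ccr2, was lower in fl/fl (10.8% of all genes). DESeq2 called 1 gene, Ccr2, in the isotype comparison (9.98% of all genes) and 0 in the fl/fl comparison (9.90%).

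Ccr2 had 17.3, 11.4 and 14.6 CPM in isotype libraries and 31.3, 25.8 and 2.72 CPM in fl/fl libraries, against 48.6 and 105 CPM in untreated libraries. Both dermatitis control groups lay wholly below untreated skin (−2.41 ± 0.68, adjusted p = 0.075 for isotype and −1.94 ± 0.67, adjusted p = 0.15 for fl/fl). Ccl11 had 27.0, 22.9 and 25.9 CPM in isotype libraries, against 74.6 and 38.6 CPM in untreated libraries (−1.16 ± 0.51, adjusted p = 0.25). Ccl24 had 3.03, 1.10 and 4.68 CPM in isotype libraries, against 19.0 and 10.7 CPM in untreated libraries (−2.34 ± 0.82, adjusted p = 0.15). Neither gene overlapped between isotype and untreated, whereas in fl/fl both did (−0.78 ± 0.51, adjusted p = 0.44 for Ccl11 and −0.84 ± 0.81, adjusted p = 0.65 for Ccl24). Fibroblast genes summed to 3861 to 4592 CPM in isotype libraries, against 13160 to 20294 CPM in untreated libraries. Ccl11 counts per 1000 fibroblast counts were 5.89, 5.83 and 6.71 in isotype libraries, against 5.67 and 1.90 in untreated libraries.

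Siglecf had 0.485, 0.202 and 0.409 CPM in isotype libraries, against 3.01 and 1.45 CPM in untreated libraries. It lay below untreated skin in isotype and in fl/fl, without passing the test (−2.60 ± 1.50, adjusted p = 0.37 and −2.15 ± 1.49, adjusted p = 0.47). By overlap, 4 genes (Ccl11, Ccl24, Ccr2 and Siglecf) lay wholly below untreated in isotype libraries (22.6% of all genes) and 1, Il5ra, wholly above (26.2%). In fl/fl libraries 2 genes, Ccr2 and Siglecf, lay wholly below (15.4%) and 0 wholly above (12.6%).

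The monocyte chemoattractants of untreated skin lay among those of dermatitis skin. Ccl2 had 12.4 and 15.5 CPM, Ccl7 had 17.1 and 36.8 CPM, Ccl8 had 84.6 and 197 CPM and Ccl12 had 1.70 and 14.9 CPM in untreated libraries. Each overlapped isotype and fl/fl, and log2 fold changes lay between −0.25 (Ccl12) and 0.96 (Ccl2) in isotype and between −0.30 (Ccl2) and 1.05 (Ccl8) in fl/fl. Ccr3 had 2.37 and 0.712 CPM and Il5ra had 0.337 and 1.04 CPM in untreated libraries.

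Of the inducers of the ligands, Tslp was called higher in both comparisons and Il6 in isotype, while the list medians lay between −0.05 and 0.54 (log2 fold change). Tslp had 382 ± 166 CPM in isotype (SD, n = 3) and 771 ± 461 CPM in fl/fl libraries (n = 3), against 2.58 ± 0.715 CPM in untreated libraries (n = 2), and was called in both (7.21, edgeR adjusted p = 0.0054 and 8.22, adjusted p = 0.0045). Il6, a cytokine of inflamed skin, had 4.26 ± 0.939 CPM in isotype and 4.07 ± 2.30 CPM in fl/fl libraries, against 0.743 ± 0.0232 CPM in untreated libraries (2.51, edgeR adjusted p = 0.037 for isotype and 2.45, adjusted p = 0.054 for fl/fl). These were the only genes of the type 2 and inflammatory lists called in either comparison, and 0 of the related ligands and receptors were called.

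Ordered by mean, Ccl24 was highest in MAR1 (34.6 CPM), then in untreated (14.8), fl/fl (8.28), cKO (3.23) and isotype skin (2.93 CPM), each group overlapping its neighbour in the order. Ccl11 followed another order, untreated (56.6), fl/fl (32.9), isotype (25.3), MAR1 (16.4) and cKO skin (14.4 CPM), in which only isotype and MAR1 did not overlap as neighbours. Ccl7 was separated only between MAR1 (119 CPM) and isotype (33.9 CPM). Ccl2, Ccl8 and Ccl12 had the highest mean in MAR1 and overlapped at every step. Ccr2 was highest in untreated (76.9) and MAR1 skin (59.1 CPM), which overlapped, and MAR1 was separated from cKO (24.8 CPM). Il5ra was separated at each step from MAR1 (25.2) to cKO (5.57), isotype (1.52) and untreated skin (0.690 CPM).

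The genes most like each member across the 14 libraries were found by Pearson's r of log2(CPM + 1) among 15310 genes. Libraries share group, depth and receptor gene share, so r is a description. Ccl2 and Ccl7, adjacent ligands of CCR2, were each other's closest gene (r = 0.91), and the genes like them included Gcnt1 (0.83) for Ccl7 and, for Ccl2, Azin1 (0.86) and the macrophage mannose receptor gene Mrc1 (0.84). The genes like Ccl24 included Pirb (0.90) and Klrc1 (0.88). Ccl8 was closest to Rab29 (0.94), Mgat1 (0.93) and Ogfr (0.90), and its r with its neighbour Ccl12 was 0.75.

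Ccl11 was closest to Mest (0.93), Aldh1l1 (0.89) and the platelet-derived growth factor gene Pdgfc (0.89), and its r with Ccl24 was 0.31. Ccl12 was closest to Jam3 (0.85), Fam167b (0.84) and Lat2 (0.83). Ccr2 was closest to Marcks (0.96), Iigp1 (0.94) and Chadl (0.93), and Ccr3 to Il10rb (0.79), Gng2 (0.78) and Prr16 (0.77). Siglecf was closest to Hsd17b14 (0.93), Wfdc2 (0.89) and Pik3r1 (0.88). Il5ra was closest to Dao (r = 0.997), Zfp582 (0.996) and the photoreceptor gene Sag (0.996). Eosinophil genes of low level, such as Epx, were outside this search, which took genes averaging 1 CPM or more.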

How the data were processed

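RNA of 14 neck skin libraries was counted per gene symbol by the authors, who deposited estimated counts (expected counts) without normalization. Per the submitters' processing notes, Salmon 1.2.1, DESeq2 1.44.0 and the build GRCm39 were used, in roles those notes do not give. Counts were rounded. An entry without a gene name (0.0137% to 0.913% of a library) was left out. The quasi-likelihood test of edgeR 4.0.16 under R 4.3.3 was fitted to all libraries at once, with a mean for each of the 5 groups, robust settings, TMM scaling and genes kept by filterByExpr. Tests were two-sided with Benjamini-Hochberg adjustment and calls under 0.05 (20939 genes, common dispersion 0.361, 9 residual degrees of freedom). SE is the log2 fold change divided by the square root of F. No molecular identifiers are given in the labels, so floors (3 counts) cover counting error only.

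Groups and replicate numbers came from the sample titles. Each sample is 1 mouse per the labels, with the doubt given for untreated skin, and p-values measure the spread between these samples. Ratios within a library used unscaled counts and exact permutation tests. Exon lengths came from GENCODE M21, used for lengths only. The text names all 10 members, up to 4 genes of smallest p per pathway list and comparison, and the 3 most like genes among those averaging 1 CPM or more; genes so chosen that are missing from the text are not reported here. Members and lists were chosen with earlier results of these data known. Alternatives were RLE scaling, DESeq2 1.42.0, other filters, a replicate block, thinning, other sample sets and, added after seeing the data, the receptor gene share in the model. The fits were tested on simulated data. Strand is not given in the sources used here, and overlapping genes cannot be told apart.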

Additional observations from a re-analysis of the deposited data

Results flagged for a closer look

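Ccl24 differed between the experiments by a test of the difference itself. Its effect in cKO against fl/fl minus its effect in MAR1 against isotype was −4.92 on the log2 scale (edgeR adjusted p = 0.027). The call held in 15 of 22 alternatives, with adjusted p up to 0.26, and was lost on leaving out isotype library 1, 2 or 3, MAR1 library 3 or fl/fl library 2, with fl/fl library 3 as the only fl/fl library and with the replicate block. Of all genes tested, 1 was called in the interaction without isotype library 1, 2 or 3, and 2 without MAR1 library 3. In 3 of 3 cKO libraries Ccl24 lay within or below the fl/fl range, while in 3 of 3 MAR1 libraries it lay above every isotype library. Receptor gene shares and library totals also differed between the experiments, and their part in the difference was not tested beyond the covariate fit.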

How the results depend on the processing

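Of 815 alternative values for the 50 single gene results, 718 kept direction and side of the threshold, 19 lost a call, 23 gained one and 55 changed sign. The cause was not tested. RLE scaling raised the share of higher calls over all genes in MAR1 against isotype to 63.5%, against 46.0% with TMM, and it lowered that share in the interaction to 48.3%. Called members numbered 4 in MAR1 against isotype, 1 in cKO against fl/fl, 1 in the interaction, and 0 in isotype and 0 in fl/fl against untreated. DESeq2 called 2 in the interaction (17.1% of all genes) and 1 in isotype against untreated (9.98%). Fits of the compared groups alone called 0 in cKO against fl/fl (8.27% of all genes) and 3 in isotype against untreated (20.3%). Without fl/fl libraries 1 and 2, the lone fl/fl library is assumed to vary like the other groups, so the number of calls in that fit is not read. The receptor gene share as a covariate was chosen after seeing the data. With it, 0 members were called in MAR1 against isotype (0% of all genes) and 0 in cKO against fl/fl (0.0669%). In isotype against untreated 1 was called (3.19%). Leaving out 1 library at a time gave 2 to 4 in MAR1 against isotype (35.2% to 49.4% of all genes) and 0 to 2 in cKO against fl/fl (9.47% to 20.9%). It gave 0 to 3 in the interaction (0.00479% to 23.3%) and 0 in both comparisons with untreated skin. In MAR1 against isotype, Ccl24 (adjusted p 0.0048 to 0.017) and Il5ra (0.0034 to 0.014) stayed called in each of these 6 fits. Over all genes, the share called in MAR1 against isotype ran from 0% to 67.6% across 15 alternatives.

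Replicate numbers did not pair the samples. Deviations of same-numbered libraries correlated at −0.11, −0.11 and 0.10 between MAR1 and isotype and at 0.18, 0.01 and −0.10 between cKO and fl/fl. A fit with the replicate number as a block called 4 members in MAR1 against isotype, 1 in cKO against fl/fl and 0 in the interaction (Ccl24 −4.74, adjusted p = 0.0504). The shares of all genes called there were 45.7%, 14.6% and 2.56%.

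Changes of sign in log2 fold change concerned values that were not called, apart from Il5ra in cKO against fl/fl. Ccl7 in cKO against fl/fl was 0.080 with RLE, 0.082 with DESeq2, 0.066 with the replicate block, 0.11 when thinned, 0.10 with the compared groups alone and 0.076 without the untreated libraries. With the untreated libraries summed, Ccl12 was 0.081 in isotype and Ccl7 −0.063 in fl/fl against untreated. Without fl/fl libraries 1 and 2, values in cKO against fl/fl were 2.84 (Ccl7), 1.84 (Ccl8), 0.87 (Ccl11), 1.92 (Ccl12), 1.25 (Ccl24) and 0.50 (Ccr3), those in the interaction 0.54 (Ccl2), 1.02 (Ccl7), 1.49 (Ccl11), 1.17 (Ccl12), 1.46 (Ccr2) and 1.78 (Il5ra), and those in fl/fl against untreated −2.47 (Ccl7), −0.95 (Ccl8) and −1.98 (Ccl12). With the receptor gene share covariate, values were 0.35 (Ccl11) and −1.26 (Ccl12) in MAR1 against isotype, −1.19 (Ccr2), 2.60 (Siglecf) and −1.13 (Il5ra) in cKO against fl/fl, −0.061 (Ccl7) and −0.24 (Il5ra) in isotype against untreated and 0.85 (Il5ra) in fl/fl against untreated. Leaving out 1 library, ranges that crossed 0 were −0.55 to 1.18 for Ccl12 in MAR1 against isotype. In cKO against fl/fl they were −0.40 to 0.89 (Ccl7), −0.83 to 0.51 (Ccl8), −0.95 to 0.60 (Ccl12) and −0.047 to 1.21 (Ccr2). Il5ra in the interaction ran from −1.62 to 0.79. In isotype against untreated they were −0.12 to 1.48 (Ccl7), −0.73 to 0.98 (Ccl8), −1.10 to 2.51 (Ccl12) and −1.64 to 0.44 (Ccr3), and in fl/fl against untreated −0.72 to 0.84 (Ccl7), −0.66 to 2.63 (Ccl12), −1.44 to 0.48 (Ccr3) and −1.61 to 0.87 (Il5ra). Depth limits Ccr3 and Siglecf, which held at most 44 and 7 counts in a MAR1 library.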
